A study of Mus musculus with 44 samples.

Results

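The Egr transcription factors (Egr1, Egr2, Egr3 and Egr4) and the Nab corepressors (Nab1 and Nab2) were followed in the dorsal hippocampus of WT and Kdm5b mutant mice, naive or after contextual fear conditioning (CFC). The 6 genes were taken by symbol from 27179 counted genes, and all 6 were found and passed the filter on low counts in every comparison. The mutants, labelled Kdm5bDARID/DARID, were homozygous for a deletion that removes the ARID domain and part of the JmjN domain of the H3K4 demethylase KDM5B and lowers its demethylase activity. All mice, WT controls included, came from a mixed F2 background of C57BL/6J and 129S2/Sv. Naive home cage mice (0 h) were compared with mice culled 1 h or 3 h after a CFC session with foot shocks, in 36 polyA RNA libraries. Each of the 6 groups held 6 libraries, of which the labels gave 3 as male and 3 as female. Age at dissection was not given in the labels.

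Egr proteins are zinc finger transcription factors that bind GC-rich sites and are encoded by immediate early genes, which neurons transcribe within minutes of strong synaptic activity without new protein synthesis. Signalling through ERK to serum response factor (SRF) at CArG boxes, and through CREB at cAMP response elements, is the usual route to their promoters. In the hippocampus Egr1 and Egr3 are best known from work on synaptic plasticity and memory, Egr2 is also the regulator of Schwann cell myelination and hindbrain patterning, and Egr4 is the least studied of the family. Nab1 and Nab2 bind Egr1, Egr2 and Egr3 through an inhibitory domain that Egr4 lacks. They repress or tune Egr target genes, partly through the NuRD subunit Chd4, and Nab2 is itself an Egr target, so that the pair closes a feedback loop.

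The promoters are shown first because the letters that SRF, CREB and Egr proteins read are known. Whether these letters bear on the responses below was not tested. RefSeq promoter windows (build GRCm38.p6) matched Egr2 with 5 transcript starts, and Egr4, Nab1 and Nab2 with 1 start each. The 250 bases before the start are given 5′ to 3′ on the strand of the gene, for Egr2 at chr10:67537620-67537869 (plus strand), for Egr4 at chr6:85513590-85513839 (minus strand), for Nab1 at chr1:52500449-52500698 (minus strand) and for Nab2 at chr10:127666704-127666953 (minus strand). Capitals mark CArG boxes, the cAMP response element core TGACG and the Egr site GCGNGGGCG, all searched on both strands.
Egr2: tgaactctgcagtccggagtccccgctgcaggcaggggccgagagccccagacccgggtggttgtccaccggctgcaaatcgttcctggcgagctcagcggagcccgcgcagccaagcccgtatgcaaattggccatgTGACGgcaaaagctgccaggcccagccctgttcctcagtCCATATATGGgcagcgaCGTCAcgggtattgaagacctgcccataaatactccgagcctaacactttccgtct
Egr4: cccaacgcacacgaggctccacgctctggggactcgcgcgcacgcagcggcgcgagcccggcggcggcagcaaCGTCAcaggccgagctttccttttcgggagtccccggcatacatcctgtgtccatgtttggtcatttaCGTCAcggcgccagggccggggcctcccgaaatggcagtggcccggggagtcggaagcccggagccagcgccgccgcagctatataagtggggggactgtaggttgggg
Nab1: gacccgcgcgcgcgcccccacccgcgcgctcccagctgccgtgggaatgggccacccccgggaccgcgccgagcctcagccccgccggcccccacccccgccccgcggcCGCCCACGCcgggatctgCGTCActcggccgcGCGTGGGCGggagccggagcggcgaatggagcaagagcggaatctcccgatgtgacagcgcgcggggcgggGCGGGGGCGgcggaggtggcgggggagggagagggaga
Nab2: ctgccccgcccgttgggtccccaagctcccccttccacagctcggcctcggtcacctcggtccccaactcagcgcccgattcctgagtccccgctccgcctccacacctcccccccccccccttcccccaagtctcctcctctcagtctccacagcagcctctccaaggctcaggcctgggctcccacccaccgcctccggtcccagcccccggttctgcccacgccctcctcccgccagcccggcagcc

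The Egr2 window held a CArG box 73 to 64 bases before the start and TGACG letters at 112 to 108 and 56 to 52 bases. The same CArG box lay in 3 of the 5 Egr2 windows, which overlap, and another CArG box, CCTTTTTTGG, lay in another window. The Egr4 window held TGACG at 177 to 173 and 109 to 105 bases before the start and no CArG box. The Nab1 window held 3 matches to GCGNGGGCG, each of which shares letters with a GGGCGG box of the Sp factors, and 1 TGACG. None of these letters was found in the Nab2 window apart from 1 GGGCGG. Of 32817 RefSeq windows of the same length, 1.47% held a CArG box, 17.7% held TGACG, 1.55% held the full element TGACGTCA, 4.7% held GCGNGGGCG and 32.7% held GGGCGG. Sequences of the other members are not shown here.

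Libraries held 40274435 to 107000233 counts on genes. The WT 3 h libraries held 70992683 to 107000233. That was more than any mutant 3 h library (56774704 to 69167677) or naive WT library (40274435 to 69151754). Whether depth played a part in those comparisons was not tested. Xist and 4 Y-linked genes went against the sex label in 2 libraries. Xist was at 51186 counts and the Y-linked genes at 0 in the library labelled WT 1 h male 1, and Xist was at 36 and the Y-linked genes at 10239 in the one labelled mutant 3 h female 2. Member results are given with all libraries, under their labels, and without these 2 where that moved the result. Stat6, whose annotated span overlaps that of Nab2, was higher in mutants over all time points (log2 fold change 0.52 ± 0.08 SE, adjusted p = 0.000343 in edgeR's quasi-likelihood test). Its level in the same 2 libraries, and in the naive libraries labelled WT male 1 (15.04 CPM, TMM-normalised counts scaled to a common library size) and mutant male 1 (10.8 CPM), lay with the other genotype, since the other 16 WT libraries had 7.72 to 13.1 CPM and the other 16 mutant libraries 12.8 to 17.2 CPM. Kdm5b itself was still counted in mutants, with a median of 80.3 CPM in naive mutants against 87.2 CPM in naive WT, and gene counts do not show the deleted exons. Its log2 difference over all times was −0.08 ± 0.02 (adjusted p = 0.0581), and −0.11 ± 0.02 without the 2 libraries (adjusted p = 0.00113). In each of the 2 libraries of discordant sex, Kdm5b and Stat6 lay in the range of the group of the other. Kdm5b was 79.6 CPM in the library labelled WT 1 h male 1 (89.97 to 97.1 CPM in the rest of its group) and 93.6 CPM in that labelled mutant 3 h female 2 (77.5 to 86.2 CPM in the rest of its group), and Stat6 was 16.2 and 10.6 CPM. Their labels are therefore in doubt, whether they were exchanged was not tested, and every value with all libraries carries that doubt. Values without these 2 still hold the naive male 1 libraries, whose Stat6 lay with the other genotype. Kdm5b was 81.5 CPM in naive WT male 1 (85.8 to 88.8 CPM in the rest of its group). In naive mutant male 1 it was 82.6 CPM (75.6 to 86.8 CPM in the rest of its group). No marker of dentate granule cells, CA1 or CA3 was at 0 in every library, and their summed levels were 219 to 466.8, 592 to 1020 and 221 to 353 CPM. Summed markers of choroid plexus ranged from 43.1 to 7947 CPM between libraries, of striatum from 72.0 to 143 CPM, of neocortex from 109 to 153 CPM, of thalamus from 135 to 289 CPM, of oligodendrocytes from 4524 to 10824 CPM and of microglia from 255.7 to 347 CPM, and their part in the results below was not tested. In bulk tissue, fewer cells of a type and less RNA per cell cannot be told apart.

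To compare levels between genes, counts were scaled per kilobase of exon (RPKM). In naive WT mice Egr1 was highest at 34.1 ± 7.97 RPKM (SD, n = 6). Egr4 followed at 15.7 ± 2.82, Nab2 at 14.5 ± 1.13, Egr3 at 11.9 ± 1.46, Nab1 at 8.42 ± 0.439 and Egr2 at 1.09 ± 0.628 RPKM. The ranges of Egr4, Nab2 and Egr3 overlapped, so their order is within the spread between mice, whereas Egr1 lay above and Egr2 below every other member in each naive WT library. Egr2 was thus a rare transcript in naive hippocampus, with as few as 106 counts in a naive WT library and 89 in a naive mutant library. It also had the widest spread between naive mice relative to its mean. Naive mutants gave 33.9 ± 5.28 RPKM for Egr1, 1.02 ± 0.619 for Egr2, 11.4 ± 1.35 for Egr3, 15.6 ± 3.98 for Egr4, 8.74 ± 0.324 for Nab1 and 14.4 ± 1.35 for Nab2.

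Training was the first comparison. With both genotypes in one fit (genotype and sex as additive terms), Egr1, Egr3, Egr4 and Nab2 were higher 1 h after CFC than in naive mice, 4 of the 6 members where 1.28% of 18186 genes passed in either direction and 1.14% passed as higher. Egr2 had the largest fitted change and missed the threshold, and Nab1 differed by −0.01 on the log2 scale. DESeq2 with sex as a covariate also called Egr2 (log2 1.54, adjusted p = 0.00960), 5 of 6 members where it called 2.74% of the 15241 genes with an adjusted p. Leaving out the 2 libraries of discordant sex brought Egr2 past the threshold, giving 5 of 6 members where 2.29% of all genes passed. By 3 h only Egr3 was still called higher than in naive mice. The labels do not say that each library is a separate animal, so p values measure the spread between these samples. Unless DESeq2 or a permutation test is named, adjusted p values are from edgeR's quasi-likelihood test with Benjamini-Hochberg adjustment over all genes tested, and a call is an adjusted p under 0.05.

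**Figure D1:**
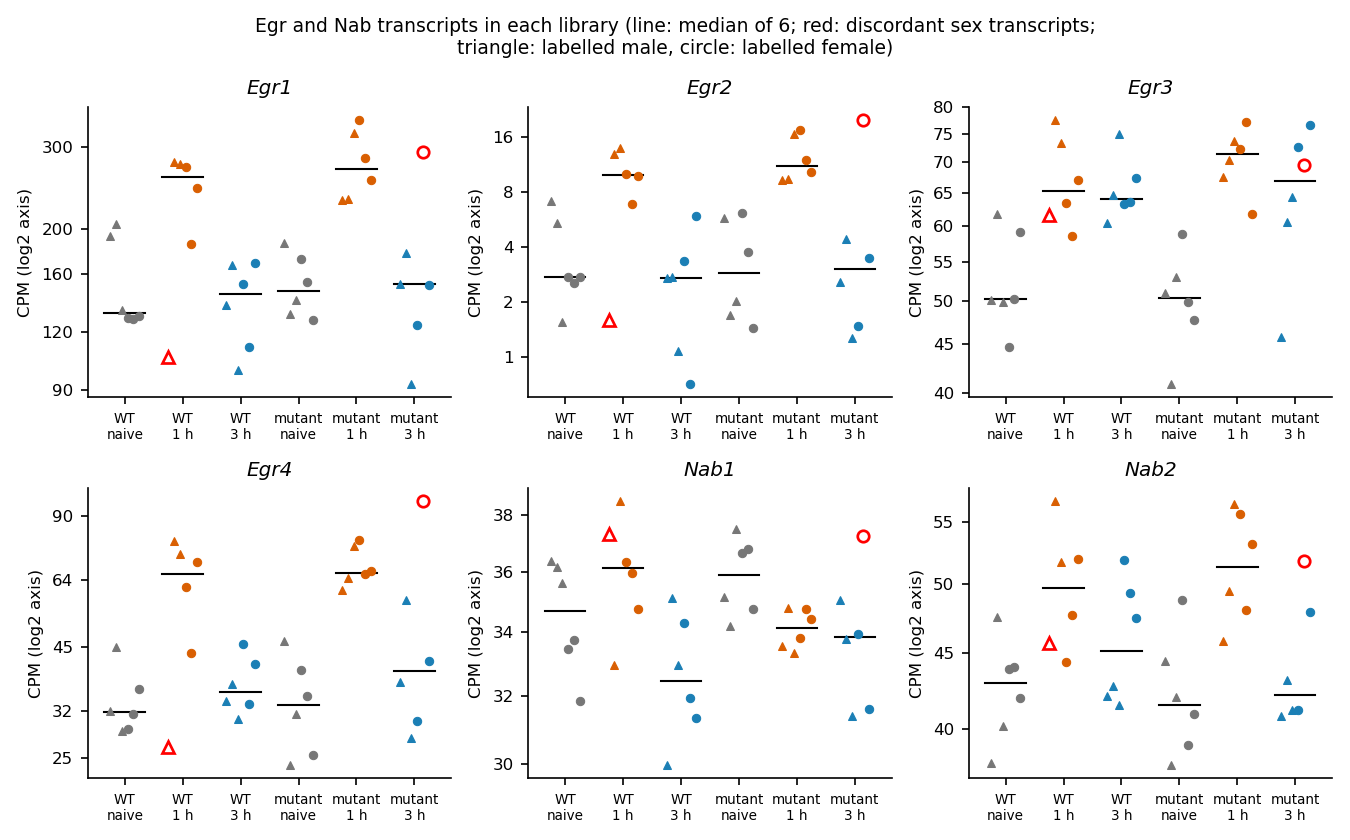
CPM on a log2 axis in each of the 36 libraries (triangles labelled male, circles labelled female, line at the median of 6) for the 6 genes by genotype and time. Egr1, Egr2 and Egr4 sit high at 1 h, Egr3 is high at both 1 h and 3 h, and the 2 libraries of discordant sex (red) lie apart from their groups for Egr1, Egr2 and Egr4.

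Egr1 (gene 13653), the most abundant member and the one most used as a marker of neuronal activity, lies on chromosome 18. Its level in naive WT mice was lowest at 128 CPM, with a median of 132 and a highest value of 205 CPM, and at 1 h it was 106, 259 and 279 CPM. The lowest WT value at 1 h was the library labelled male 1, and without it the lowest was 186 CPM. In mutants Egr1 had a lowest, median and highest level of 127, 147 and 187 CPM in naive mice and 231, 270.0 and 344 CPM at 1 h, so that all 6 trained mutants lay above all 6 naive ones, as for 1.03% of all genes. At 3 h the WT values were 99.4, 145 and 169 CPM and the mutant values 92.7, 152 and 293 CPM, the last from the library labelled female 2, without which the highest was 178 CPM. Apart from that library, levels at 3 h fell in or below the naive range. Over both genotypes Egr1 was 1.64-fold higher at 1 h than in naive mice (log2 0.72 ± 0.16 SE, adjusted p = 0.0134, and 0.80 ± 0.11, adjusted p = 0.000132, without the 2 libraries) and 0.603 times as high at 3 h as at 1 h (log2 −0.73 ± 0.16, adjusted p = 0.0264). The fitted difference between 3 h and naive was −0.01 on the log2 scale (95% interval −0.33 to 0.30, adjusted p = 0.983).

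Egr2 (Krox20, gene 13654, chromosome 10, 67534469 to 67542188) showed the widest swing. In naive WT mice the lowest, median and highest levels were 1.56, 2.75 and 7.15 CPM, at 1 h 1.60, 9.94 and 13.9 CPM, and at 3 h 0.709, 2.71 and 5.93 CPM. In mutants they were 1.43, 2.89 and 6.16 CPM in naive mice, 9.40, 11.1 and 17.5 CPM at 1 h, and 1.27, 3.04 and 19.9 CPM at 3 h. The value of 1.60 CPM at 1 h and that of 19.9 CPM at 3 h were the 2 libraries of discordant sex. Without them the 11 trained mice at 1 h ranged from 6.93 to 17.5 CPM and those at 3 h from 0.709 to 5.93 CPM, and the 2 times did not overlap in either genotype, as for 0.73% of all genes in WT and 0.922% in mutants. The fit over both genotypes gave a 2.94-fold higher level at 1 h with all libraries (log2 1.55 ± 0.41, adjusted p = 0.0517) and a 3.27-fold higher level without the 2 libraries (log2 1.71 ± 0.31, adjusted p = 0.00142). Without any one of 6 libraries (WT naive male 1 and male 2, WT 1 h male 1 and female 2, WT 3 h female 2, mutant 3 h female 2) Egr2 also passed, at adjusted p of 0.0109 to 0.0494. At 3 h its difference from naive was 0.07 ± 0.42 (adjusted p = 0.959) with all libraries and −0.39 ± 0.31 (adjusted p = 0.568) without the 2.

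Egr4 (gene 13656, chromosome 6, 85511121 to 85513589) was also highest at 1 h. Naive WT mice had 28.8, 31.8 and 44.9 CPM (lowest, median, highest), mice at 1 h 26.4, 66.0 and 78.7 CPM, and mice at 3 h 30.6, 35.3 and 45.7 CPM. Naive mutants had 24.02, 33.1 and 46.3 CPM, mutants at 1 h 60.8, 66.6 and 79.2 CPM, and mutants at 3 h 27.7, 39.4 and 97.1 CPM. The lowest WT value at 1 h and the highest mutant value at 3 h were again the libraries labelled WT male 1 and mutant female 2, and the next values were 43.6 and 57.5 CPM. Egr4 was 1.89-fold higher at 1 h than in naive mice over both genotypes (log2 0.92 ± 0.17, adjusted p = 0.00544), and 2.00-fold higher without the 2 libraries (adjusted p = 9.96e-06). At 3 h its log2 difference from naive was 0.32 ± 0.17 with all libraries (adjusted p = 0.358). Without the 2 libraries it was 0.17 ± 0.12 (adjusted p = 0.509). With all libraries the Egr4 estimate was close to that of Egr3 (0.35 ± 0.07), which was called, but had a larger SE. The absence of a call at 3 h therefore does not place Egr4 at its naive level.

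Egr3 (gene 13655, chromosome 14, 70077317 to 70082613) was higher than in naive mice at both 1 h and 3 h. In WT mice it was 44.7, 50.2 and 61.7 CPM (lowest, median, highest) when naive, 58.6, 65.2 and 77.5 CPM at 1 h and 60.4, 64.1 and 75.1 CPM at 3 h. In mutants it was 40.8, 50.4 and 58.8 CPM when naive, 61.7, 71.4 and 77.2 CPM at 1 h and 45.8, 66.9 and 76.7 CPM at 3 h. At 3 h, 5 of 6 WT libraries and 5 of 6 mutant libraries lay above the highest naive library of their genotype. Over both genotypes Egr3 was 1.34-fold higher at 1 h (log2 0.42 ± 0.07, adjusted p = 0.00118) and 1.27-fold higher at 3 h (log2 0.35 ± 0.07, adjusted p = 0.00404). It was the 1 member called at 3 h, where 2.6% of all genes passed and 1.86% passed as higher, and the call held without the 2 libraries (log2 0.34 ± 0.07, adjusted p = 0.00547), where 3.75% of genes passed. Between 1 h and 3 h it differed by −0.07 on the log2 scale (95% interval −0.21 to 0.06, adjusted p = 0.762).

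The corepressors differed from each other. Nab2 (gene 17937, chromosome 10, 127660918 to 127666703) was 38.0, 43.0 and 47.5 CPM (lowest, median, highest) in naive WT mice, 44.4, 49.7 and 56.8 CPM at 1 h and 41.6, 45.1 and 51.9 CPM at 3 h. In mutants it was 37.9, 41.5 and 48.8 CPM when naive, 45.8, 51.3 and 56.6 CPM at 1 h and 40.8, 42.2 and 51.8 CPM at 3 h. The groups overlapped, with 4 of 6 trained mice above the naive maximum at 1 h in each genotype. Over both genotypes Nab2 was 1.19-fold higher at 1 h (log2 0.26 ± 0.05, adjusted p = 0.00544, and 0.00142 without the 2 libraries) and differed by 0.09 ± 0.05 at 3 h (adjusted p = 0.393). Nab1 (gene 17936, chromosome 1, 52455849 to 52500712) had the narrowest spread of all members, with group medians of 32.4 to 36.1 CPM over the 6 groups. Its change at 1 h was −0.01 on the log2 scale with a 95% interval of −0.07 to 0.06 (adjusted p = 0.967), and at 3 h −0.08 with an interval of −0.15 to −0.02 (adjusted p = 0.188).

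The return from 1 h to 3 h depended on the 2 libraries. With all 36, Egr1 was the only member called lower at 3 h than at 1 h, where 0.28% of 18186 genes passed and 0.225% passed as lower. Without the 2 libraries Egr1, Egr2, Egr4 and Nab2 all passed, 4 of 6 members where 1.87% of genes passed. The fitted level at 3 h was then 0.526 times that at 1 h for Egr1 (adjusted p = 4.76e-05), 0.233 times for Egr2 (adjusted p = 0.000263), 0.562 times for Egr4 (adjusted p = 0.000128) and 0.874 times for Nab2 (adjusted p = 0.0333). Egr2 passed when the library labelled mutant 3 h female 2 alone was left out (adjusted p = 0.0027), and Egr4 when that library (adjusted p = 0.0057) or the one labelled WT 1 h male 1 (adjusted p = 0.0336) was. The call of Egr1 with all 36 libraries was close to the threshold. It was lost, at adjusted p of 0.0504 to 0.0659, without any 1 of 14 libraries, namely WT 1 h male 2, male 3, female 1 and female 3, mutant 1 h male 3, female 1 and female 2, WT 3 h male 1, male 3 and female 2, and mutant 3 h male 1, male 3, female 1 and female 3.

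**Figure D2:**
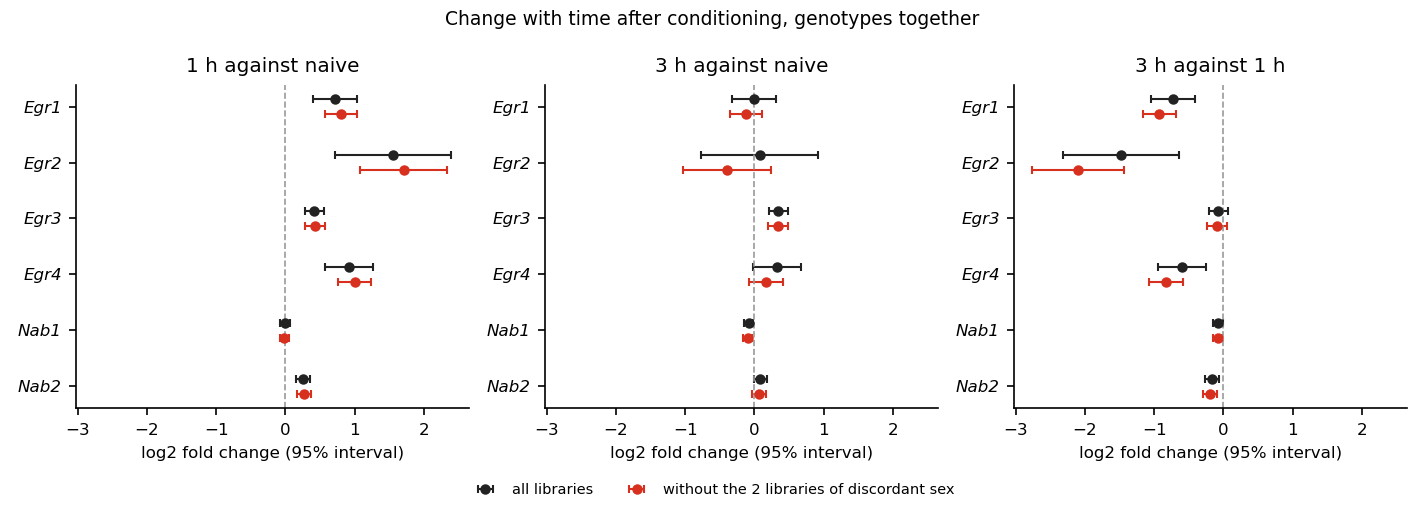
Log2 fold change with its 95% interval for the 6 genes between time points, genotypes fitted together, with all 36 libraries (black) and without the 2 libraries of discordant sex (red). At 3 h against naive the Egr3 interval, 0.21 to 0.48, lies above 0 and that of Egr1 spans it, and at 3 h against 1 h the Egr2 change moves from −1.48 to −2.10 without the 2 libraries.

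Each genotype was then fitted on its own, with the naive mice of that genotype as shared controls for both time points. In mutants Egr1 (1.82-fold, log2 0.87 ± 0.13, adjusted p = 0.0149), Egr3 (log2 0.49 ± 0.08, adjusted p = 0.0149) and Egr4 (2.05-fold, log2 1.04 ± 0.16, adjusted p = 0.0199) passed at 1 h, 3 of 6 members where 0.312% of 17282 genes passed and 0.301% passed as higher. Egr2 was 3.60-fold higher (log2 1.85 ± 0.39, adjusted p = 0.0979) and Nab2 1.22-fold higher (log2 0.28 ± 0.07, adjusted p = 0.105), and neither passed. Every trained mutant at 1 h lay above every naive mutant for Egr1, Egr2, Egr3 and Egr4, as did 1.03% of all genes. Egr1 no longer passed without the naive mutant labelled male 3 (adjusted p = 0.0623), and Egr4 no longer passed without that library or any 1 of the mutant 1 h libraries labelled male 2, male 3 and female 3 (adjusted p of 0.0519 to 0.072). DESeq2 called 5 of the 6 members in this comparison, where it called 363 of 18106 genes (2%). With all 36 libraries in 1 edgeR fit only Egr3 passed (adjusted p = 0.0174), with Egr4 at 0.0568 and Egr1 at 0.0964.

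In WT no gene passed at 1 h, a share of 0% of 17319, and 928 genes had an unadjusted p under 0.05. Of the members, 5 had an unadjusted p under 0.05, with Egr1 1.5-fold, Egr2 2.58-fold, Egr3 1.27-fold, Egr4 1.75-fold and Nab2 1.16-fold higher, all at an adjusted p of 0.922 in edgeR. Without the library labelled male 1 these became 1.70-fold for Egr1 and 1.97-fold for Egr4 (both at adjusted p = 0.0795) and 3.11-fold for Egr2 (adjusted p = 0.173), and no member passed in WT alone, where 3 genes then passed. DESeq2 with sex as a covariate called 5 genes in this comparison and no member.

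At 3 h no gene passed in either genotype alone (0% of 17438 in WT, with 1436 at an unadjusted p under 0.05, and 0% of 17285 in mutants, with 1481). Egr3 had the smallest p among the members in both, with a log2 difference of 0.32 ± 0.08 in WT (adjusted p = 0.421) and 0.36 ± 0.10 in mutants (adjusted p = 0.324), and DESeq2 with sex as a covariate called it in WT (adjusted p = 0.0307, 0.526% of genes called) and in mutants (adjusted p = 0.0369, 0.824% of genes called). Between 1 h and 3 h no gene passed in WT (0% of 17388, 1288 at an unadjusted p under 0.05) or in mutants (0% of 17247, 1387 at an unadjusted p under 0.05), against 3 genes in WT and 18 in mutants without the library of discordant sex. With all libraries 4 WT and 2 mutant members had an unadjusted p under 0.05. DESeq2 called 62 genes in WT and 81 in mutants there and no member. In the same comparisons 4 of 5 microglial markers in WT (median −0.15) and 0 of 5 in mutants had an unadjusted p under 0.05. For choroid plexus it was 0 of 6 markers in WT and 4 of 6 in mutants (median 2.03). Among all genes the share was 7.41% in WT and 8.04% in mutants, and the part of these tissues was not tested. Without the libraries of discordant sex the WT values at 3 h lay below all those at 1 h for Egr1 and Egr2, as did 0.73% of all genes. The mutant values did so for Egr1, Egr2 and Egr4, as did 0.922% of all genes.

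Genotype was the second comparison. No member differed between mutants and WT at any time (0% of 17336 genes passed in naive mice, 0% of 17261 at 1 h and 0.0115% of 17394 at 3 h, and without the library of discordant sex 41 genes at 1 h and 18 at 3 h), and none of the 6 had an unadjusted p under 0.05 in edgeR or a call in DESeq2. DESeq2 called 16, 98 and 50 genes at the 3 time points. In naive mice the log2 difference of mutants from WT was 0.00 for Egr1 (95% interval −0.29 to 0.30), −0.04 for Egr2 (−1.09 to 1.00), −0.07 for Egr3 (−0.27 to 0.13), −0.01 for Egr4 (−0.38 to 0.36), 0.05 for Nab1 (−0.05 to 0.15) and −0.02 for Nab2 (−0.16 to 0.13). The interval of Egr2 was the widest and that of Nab1 the narrowest. Without the naive libraries labelled male 1 of each genotype, the difference was 0.01 for Egr1 (−0.31 to 0.33) and −0.14 for Egr4 (−0.52 to 0.25), and no member passed.

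At 1 h the fitted levels of all 4 Egr genes were higher in mutants, by 0.29 for Egr1, 0.44 for Egr2, 0.08 for Egr3 and 0.23 for Egr4 on the log2 scale, at adjusted p of 0.778 to 0.851. Without the library labelled WT male 1 these became 0.14, 0.23, 0.04 and 0.07. At 3 h Egr2 was 0.84 higher in mutants (95% interval −0.71 to 2.38, adjusted p = 0.884), and without the library labelled mutant female 2 the difference was 0.01 (−1.21 to 1.22). Over all time points, where 1.3% of 18186 genes passed, the member with the largest difference was Egr2 at 0.42 ± 0.34 (adjusted p = 0.6), and without the 2 libraries it was 0.03 ± 0.25 (adjusted p = 0.978). The summed median of the choroid plexus markers was 2090, 1040 and 2195 CPM in WT at 0, 1 and 3 h and 192, 126 and 1473 CPM in mutants, and all 6 had an unadjusted p under 0.05 over all time points, as did 15.2% of all genes, with 0 called by edgeR and 4 by DESeq2. The groups overlapped, with 46.1 to 5765 CPM in naive WT mice and 65.1 to 2602 CPM in naive mutants, and the part of this tissue in the results was not tested.

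**Figure D3:**
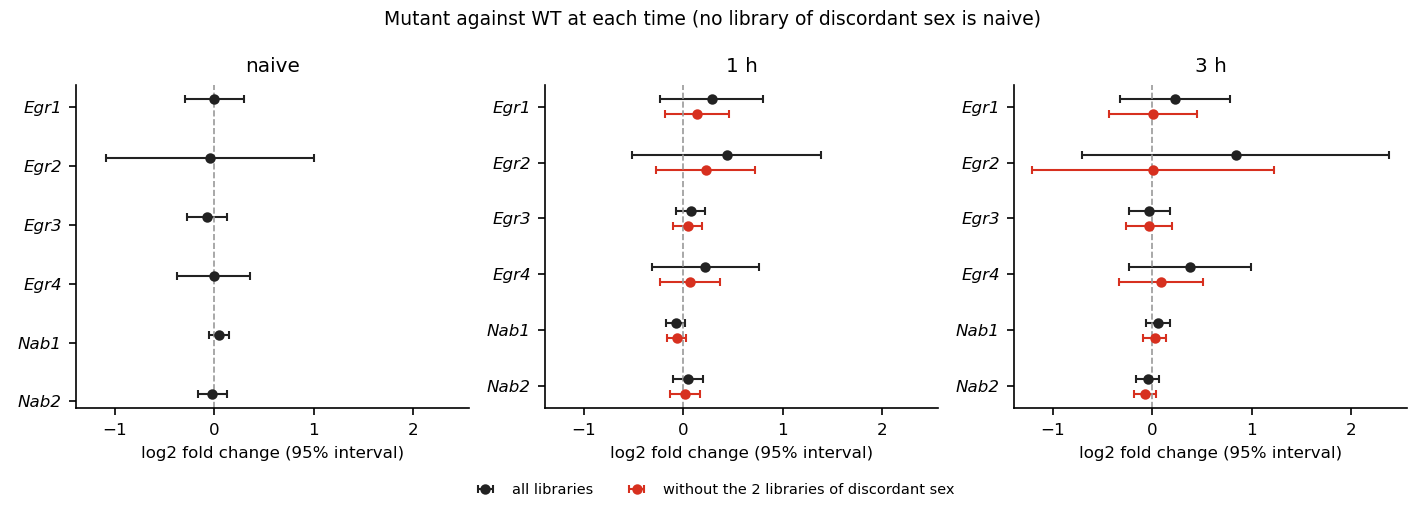
Log2 difference of mutants from WT with its 95% interval for the 6 genes in naive mice, at 1 h and at 3 h, with all libraries (black) and without the 2 libraries of discordant sex (red). All intervals span 0, and the Egr2 difference at 3 h moves from 0.84 to 0.01 when the library labelled mutant female 2 is left out.

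Whether the response to training itself differed by genotype was tested as an interaction. No gene passed for 1 h against naive (0% of 17907, with 677 at an unadjusted p under 0.05 and 2 called by DESeq2) or for 3 h against naive (0% of 17926, with 273 at an unadjusted p under 0.05 and 0 called by DESeq2). At 1 h the mutant response exceeded that of WT by 0.30 for Egr1 (95% interval −0.29 to 0.88), 0.51 for Egr2 (−0.84 to 1.86), 0.14 for Egr3 (−0.11 to 0.39), 0.23 for Egr4 (−0.39 to 0.85) and 0.06 for Nab2 (−0.14 to 0.27). For Nab1 the mutant response was lower by −0.13 (−0.25 to −0.01), the 1 member with an unadjusted p under 0.05, at an adjusted p of 0.999. Without the library labelled WT 1 h male 1 these differences were 0.14 for Egr1, 0.28 for Egr2, 0.12 for Egr3, 0.08 for Egr4, 0.04 for Nab2 and −0.12 for Nab1 (−0.24 to 0.0046), and no member had an unadjusted p under 0.05. At 3 h the interaction was 1.10 for Egr2 (−0.77 to 2.97) and 0.40 for Egr4 (−0.31 to 1.11), and these became 0.03 and 0.08 when the mutant library of discordant sex was left out. The passing of Egr1, Egr3 and Egr4 at 1 h in mutants and not in WT was thus not matched by a difference between genotypes that passed.

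The ratio of 2 transcripts within a library does not depend on its depth, and shows whether members changed to unequal degrees. Ratios to Egr1, and Nab2 to Nab1, were compared between times in each genotype with an exact permutation test (two-sided, libraries as units), added after the data had been seen, in 24 comparisons for which the smallest possible p is 0.00216. The log2 ratio of Egr2 to Egr1 in mutants was −5.67 in naive mice and −4.50 at 1 h (exact p = 0.00216, 0.026 after adjustment over the 24), so Egr2 rose more than Egr1. The same ratio in WT was −5.53 and −4.82 (exact p = 0.0693, adjusted 0.111), and −4.58 at 1 h without the library labelled male 1 (p = 0.00866, adjusted 0.0277 over the 16 comparisons that hold one of the 2 libraries). The log2 ratio of Nab2 to Nab1 rose in mutants from 0.23 to 0.59 at 1 h (exact p = 0.00216, adjusted 0.026), and in WT it was 0.30 and 0.46 (p = 0.13, adjusted 0.173).

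The log2 ratio of Egr4 to Egr1 in mutants was −2.20 in naive mice, −1.999 at 1 h and −1.82 at 3 h, and the difference between 3 h and naive, 0.39, did not pass after adjustment with all libraries (exact p = 0.00649, adjusted 0.0519). Without the library labelled female 2 it was 0.34 with a higher exact p of 0.013, adjusted 0.0346 both over the 16 comparisons that hold one of the 2 libraries and over all 24. In WT the 3 means were −2.17, −1.96 and −1.91, and none of the differences passed. The ratio of Egr3 to Egr1 was compared in the same way. In WT its log2 value averaged −1.52 in naive mice, −1.70 at 1 h and −1.06 at 3 h (3 h against naive, exact p = 0.0368, adjusted 0.0803). In mutants it averaged −1.59, −1.97 and −1.28 (1 h against naive, exact p = 0.0108, adjusted 0.0649, and 3 h against naive p = 0.24, adjusted 0.303). None of these passed after adjustment. Between 1 h and 3 h without the 2 libraries the ratio rose by 0.82 in WT (exact p = 0.00433, adjusted 0.0231) and by 0.85 in mutants (p = 0.00866, adjusted 0.0277). The same comparisons with all libraries gave 0.64 (exact p = 0.0346) and 0.69 (p = 0.026), both at an adjusted p of 0.0803.

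**Figure D4:**
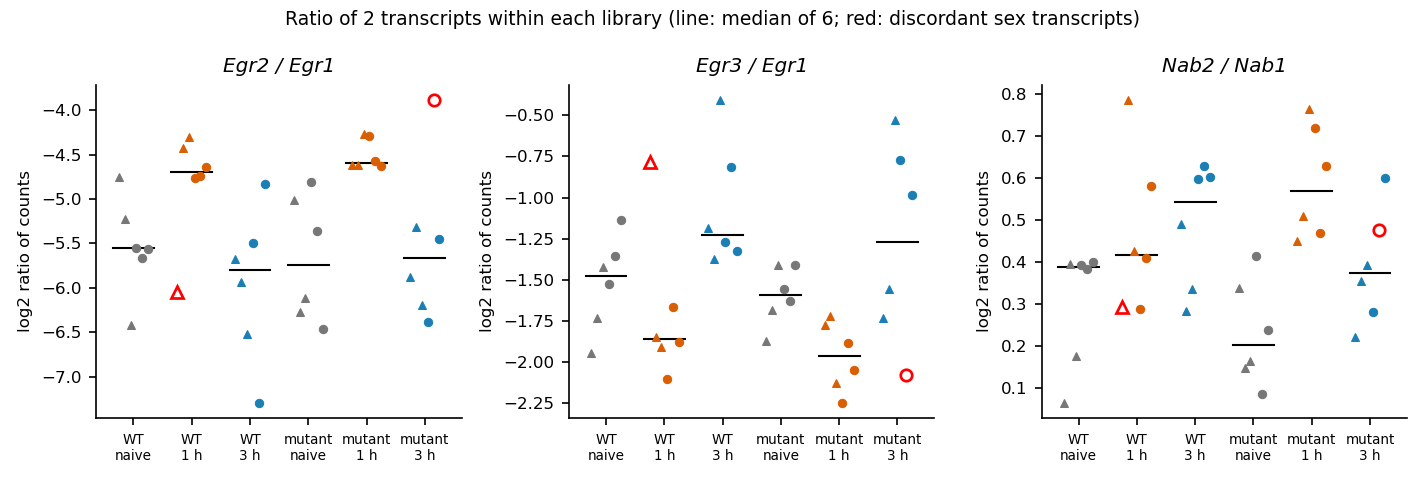
Log2 ratio of counts within each library for Egr2 to Egr1, Egr3 to Egr1 and Nab2 to Nab1, by genotype and time (triangles labelled male, circles labelled female, line at the median of 6, red for discordant sex). In mutants the Egr2 to Egr1 ratio averages −5.67 in naive mice and −4.50 at 1 h, and the 2 red libraries lie on the far side of their groups for the ratios to Egr1.

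Over the 36 libraries the members fell into a tight and a loose group. Pearson's r of log2 CPM was 0.96 between Egr1 and Egr2, 0.92 between Egr1 and Egr4, and 0.90 between Egr2 and Egr4. After subtraction of the mean of each genotype and time group these were 0.93, 0.90 and 0.88, so that mice of the same group that were high in one were high in the others. Without the 2 libraries of discordant sex the values within groups were 0.87, 0.81 and 0.77 over 34 libraries. Egr3 was less closely tied to Egr1, at 0.44 overall and 0.26 within groups, and Nab2 was closest to Egr4, at 0.79 overall and 0.66 within groups. For Nab1 the highest r was that with Egr1, at 0.29 overall and 0.31 within groups. These values are descriptions over libraries that share processing, and naive and trained mice are both in them.

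**Figure D5:**
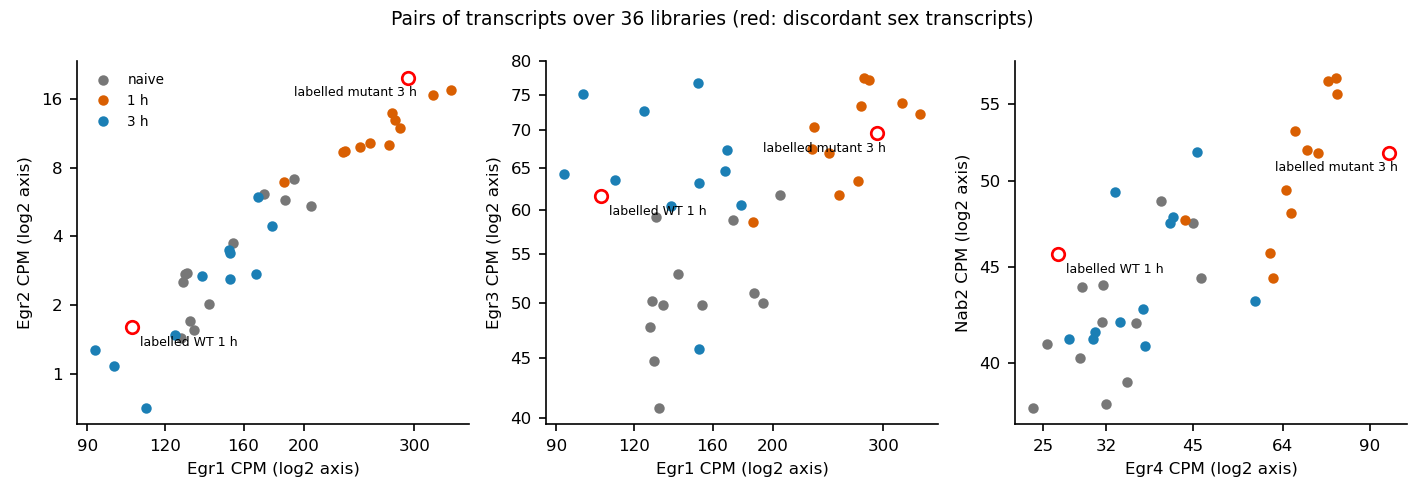
Egr2 against Egr1, Egr3 against Egr1 and Nab2 against Egr4 in CPM on log2 axes over 36 libraries, coloured by time, with the 2 libraries of discordant sex in red. Egr1 and Egr2 lie along 1 line (r = 0.96), whereas most libraries at 3 h keep a high Egr3 level at or below naive levels of Egr1 (r = 0.44). Among the exceptions are the libraries labelled mutant 3 h male 1 (Egr3 at 45.8 CPM) and mutant 3 h female 2 (Egr1 at 293 CPM).

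Of 17515 other named genes, those most like each member by Pearson's r over the 36 libraries were as follows, with r within groups after the overall r. Egr1 was most like Nr4a1 (0.94 and 0.90), Fos (0.91 and 0.83) and Junb (0.89 and 0.81), and Egr2 most like Fos (0.96 and 0.93), Nr4a1 (0.93 and 0.89) and Junb (0.92 and 0.89), all immediate early genes. Egr4 was most like Junb (0.92 and 0.87), Nr4a1 (0.91 and 0.91) and Midn (0.90 and 0.89). Nab2 was most like Gadd45b (0.81 and 0.65), Junb (0.80 and 0.65) and Srf (0.79 and 0.62), the gene of serum response factor. Egr3 was most like Rundc1 (0.79 and 0.56), Rbm14 (0.78 and 0.55) and Ski (0.73 and 0.44), and shared no gene of its 3 with another member. Nab1 was most like Qk, the RNA-binding protein quaking (0.74 and 0.66), Fgd3 (0.69 and 0.70) and Cyp2j12 (0.68 and 0.59), and likewise shared none of its 3. Without the 2 libraries the overall r of these 18 pairs ranged from 0.65 to 0.96.

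The other genes of the pathway were read from lists. Of 12 other immediate early transcription factors, 9 passed as higher at 1 h over both genotypes and none as lower, where 1.14% of all genes passed as higher. Their median log2 change was 0.66, where the median over all genes was −0.01. Fosb (log2 1.37 ± 0.13, adjusted p = 9.41e-08), Fos (1.25 ± 0.29), Atf3 (1.02 ± 0.19) and Npas4 (0.82 ± 0.19) were among the 9 that passed. The other 5 were Junb, Nr4a1, Fosl2, Nr4a2 and Nr4a3, with log2 changes of 0.40 to 0.76. At 3 h Fosb was the 1 of the 12 still called higher (0.73 ± 0.13), beside Egr3 among the members. The same counts, 9 and 1, were found without the 2 libraries of discordant sex. Of the 6 SRF and ternary complex factor genes, Srf passed at 1 h (0.20 ± 0.04, adjusted p = 0.00353) and Mrtfa, an SRF coactivator, at 3 h (0.35 ± 0.05). Of all genes, 1.28% passed at 1 h and 2.6% at 3 h. Without the 2 libraries 2 of the 6 passed at each time (Srf and Elk4 at 1 h, Mrtfa and Mrtfb at 3 h). The shares of all genes were then 2.29% at 1 h and 3.75% at 3 h. Of 10 kinases of the ERK cascade none passed at 1 h (edgeR, 2 at an unadjusted p under 0.05, and 0 called by DESeq2) or at 3 h (2 and 0). Such a p was found for 12.7% of all genes at 1 h and 16% at 3 h.

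Of 9 genes reported as Egr targets in neural cells, Arc, the activity-regulated cytoskeletal gene, was the 1 that passed at 1 h (log2 0.88 ± 0.22, adjusted p = 0.0394, and 0.94 ± 0.17, adjusted p = 0.00187, without the 2 libraries), and none passed at 3 h (edgeR, 0 at an unadjusted p under 0.05 and 0 called by DESeq2). The median of these 9 was 0.02 at 1 h and 0.04 at 3 h. Of 14 NuRD subunits, the chromatin remodelling complex that Nab proteins recruit, none passed at 1 h (edgeR, 1 at an unadjusted p under 0.05, and 0 called by DESeq2) or at 3 h (2 and 0). Among all genes 12.7% had such a p at 1 h and 16% at 3 h. The other factors of GC-rich sites, Sp1, Sp3 and Sp4, did not pass either (edgeR, 0 at an unadjusted p under 0.05 and 0 called by DESeq2 at 1 h), and Wt1 was below the filter. Over all time points none of the genes in these 6 lists passed between genotypes (edgeR, 6 at an unadjusted p under 0.05, and 0 called by DESeq2). In that comparison 15.2% of all genes had an unadjusted p under 0.05. For cell type markers, C1ql2 of dentate granule cells was higher in mutants (0.74 ± 0.15, adjusted p = 0.00898, and 0.84 ± 0.14 without the 2 libraries), and Trpc6 of the same list (−0.38 ± 0.11) and the neocortical marker Rorb (−0.31 ± 0.06) were lower at 3 h than in naive mice, while the medians of their lists were 0.03 and 0.05. Without the 2 libraries Trpc6 did not pass (adjusted p = 0.0590), and Drd1 of striatum was lower at 1 h (−0.44, adjusted p = 0.0145) and Kl of choroid plexus lower in mutants (−1.24, adjusted p = 0.02). At 3 h 4 of 5 microglial markers had an unadjusted p under 0.05, as did 2913 of 18186 genes (median −0.14, 0 called by edgeR and 2 by DESeq2), and at 1 h in mutants 3 of 6 striatal markers did, as did 11.1% of all genes (median −0.41, 0 called by edgeR and 2 by DESeq2). Between naive mutants and naive WT, 3 of 6 striatal markers also had an unadjusted p under 0.05, as did 6.15% of all genes (median 0.50, 0 called by edgeR and 0 by DESeq2). In WT at 1 h 0 of 6 did (median −0.11). Naive mutants are the controls of the mutant fits. The part of these markers in the results was not tested.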

How the data were processed

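PolyA RNA of dorsal hippocampus was sequenced as paired-end reads. The authors deposited 1 file of raw counts per library, whole numbers of reads per Entrez gene. Per the submitters' processing notes the tools were STAR 2.7.8a and featureCounts 2.0.1 with the mm10 build, and the strand setting and annotation were not given in the sources used here. Files were read for 36 of 44 samples, and the other 8 samples were not analysed here. Symbols came from a RefSeq gene table (GRCm38.p6). It named 25275 of 27179 genes, and the 1904 genes without a name held 1.284% of counts and stayed in the tests. Library totals ran from 40274435 to 107000233 counts, and no pair of libraries held identical counts.

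Samples were grouped by genotype and time as labelled. Genes were kept by filterByExpr (minimum count 10), normalised by TMM and tested in edgeR 4.0.16 (limma 3.58.1, R 4.3.3) by the robust quasi-likelihood F test with sex as a covariate, with Benjamini-Hochberg adjustment over all genes tested and a threshold of 0.05. There were 9 pairwise comparisons of 12 libraries, 2 interactions of 24 libraries and 4 comparisons over 36 libraries with additive genotype, time and sex. CPM used TMM over all 36 libraries, RPKM divided CPM by exon length, and correlations used log2 CPM with a prior count of 2. Intervals from the fits are 95% intervals. Ratios of counts were compared by an exact permutation test in SciPy 1.17.1. Figures were drawn with matplotlib 3.10.9.

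The members, the gene lists (other immediate early transcription factors, SRF and ternary complex factors, ERK cascade, Egr targets, NuRD, GC-rich site factors and cell type markers), and the tests were chosen with earlier results of these data known. Genes named beside the 6 members are those of a list that passed, or up to 4 with the highest level, Kdm5b, Stat6 as an overlapping neighbour, and the 3 genes most correlated with each member. The annotated span of Gm32255 (chromosome 10, 67496359 to 67536180) overlaps that of Egr2, and its level is not described here. Alternatives were DESeq2 1.42.0 with sex or with a prior on fold changes, RLE size factors, no sex covariate, other filters, 1 fit of all libraries, a replicate block, each library left out, and both libraries of discordant sex left out. Leaving out 4 libraries (these 2 and the naive male 1 libraries, by Stat6) and the ratio tests were added after the data had been seen. The fit was tested on simulated counts.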

Additional observations from a re-analysis of the deposited data

Results flagged for a closer look

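Each of 36 sets of 6 libraries (6 members in 6 groups) was examined for a library far from the others by Dixon's limit, on log2 CPM and on CPM, and the 2 scales picked out different sets. On log2 CPM it was Egr2 in WT mice at 1 h, where the library labelled male 1 had 1.60 CPM and the next lowest 6.93 CPM, a gap of 0.677 of the range of the group in log2 units and of 0.432 in CPM. On CPM it was Egr2 in mutants at 3 h, where the library labelled female 2 had 19.9 CPM and the next highest 4.46 CPM, a gap of 0.828 of the range in CPM and of 0.543 in log2 units. Chance alone gives about 1 in 20 such sets. These are the 2 libraries whose sex transcripts went against their labels.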

How the results depend on the processing

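Over 90 gene and comparison results, 2481 of 2622 alternative values kept their direction and side of the threshold, 21 lost a call, 28 gained one and 92 turned sign, none of these called. The number of members called moved as follows. Over both genotypes at 1 h against naive it was 4 in edgeR, 5 in DESeq2, 5 without the 2 libraries of discordant sex, 5 without 4 libraries, and 4 to 5 with single libraries left out. DESeq2 with sex called 1 in WT at 3 h against naive (0 in edgeR), 5 in mutants at 1 h (3 in edgeR), 1 in mutants at 3 h (0 in edgeR) and 2 for 3 h against 1 h over both genotypes (1 in edgeR). DESeq2 with a prior called 1 in WT at 3 h, where it called 49 genes, and 5 in mutants at 1 h, where it called 392 genes. With all 36 libraries in 1 fit, 1 was called in mutants at 1 h (Egr3, adjusted p = 0.0174, with Egr4 at 0.0568 and Egr1 at 0.0964). For 3 h against 1 h over both genotypes, 4 were called without the 2 libraries of discordant sex and 4 without 4 libraries. Leaving out single libraries gave 1 to 3 members called in mutants at 1 h and 0 to 3 for 3 h against 1 h.

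Signs turned for differences that had not been called, the widest being Egr2 in mutants at 3 h against naive, at 0.48 with all libraries. In mutants at 3 h against naive Egr1 was −0.12 without the 2 libraries and −0.039 without 4, and Egr2 −0.37 and −0.023. Over both genotypes Egr2 at 3 h was −0.39 and −0.12. Between naive genotypes Egr1 was −0.0081 in DESeq2 with a prior, −0.014 without the sex covariate and −0.013 in 1 fit of all libraries. In the 3 h interaction Egr1 was −0.0043 without the 2 libraries and −0.0032 without 4, and Nab1 −0.031 and −0.052, −0.00071 in 1 fit of all libraries and −0.00015 with the replicate block. The cause was not tested.

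With single libraries left out, log2 differences that turned sign ranged as follows. Between 3 h and 1 h, Egr3 in WT ranged from −0.058 to 0.014 and Nab1 in mutants from −0.039 to 0.014. In mutants at 3 h Egr1 ranged from −0.12 to 0.23 and Egr2 from −0.37 to 0.89. Between naive genotypes Egr1 ranged from −0.067 to 0.0775, Egr2 from −0.34 to 0.22, Egr4 from −0.13 to 0.091 and Nab2 from −0.063 to 0.025. Between genotypes at 3 h Egr3 ranged from −0.068 to 0.056. In the 3 h interaction Egr1 ranged from −0.0043 to 0.38, Egr3 from −0.014 to 0.13, Nab1 from −0.031 to 0.026 and Nab2 from −0.079 to 0.0012. Over both genotypes Nab1 at 1 h ranged from −0.023 to 0.00101, and at 3 h Egr1 from −0.12 to 0.046 and Egr2 from −0.39 to 0.26. Over all times between genotypes Egr3 ranged from −0.022 to 0.023 and Nab2 from −0.019 to 0.0097.

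Counts of genes called moved more than those of members. DESeq2 with sex called 363 genes in mutants at 1 h (54 in edgeR), and over both genotypes 417 at 1 h (232), 818 at 3 h (2.6% of genes in edgeR) and 197 for 3 h against 1 h (51), with 556 between genotypes (237). In edgeR without 4 libraries the counts were 345 at 1 h (232 with all), 239 at 3 h (2.6% of genes with all), 361 for 3 h against 1 h (51 with all) and 747 between genotypes (237 with all). The replicate numbers did not pair samples (19 of 90 same-numbered pairs had a correlation over 0.1, median 0.016). The replicate block moved the count in mutants at 1 h from 54 to 37 and left 3 members called there (Egr1 0.0306, Egr3 0.0243, Egr4 0.0432, adjusted p), and it changed the number of members called in no other comparison. Ranking by Spearman's correlation kept at least 2 of the 3 most similar genes of each member. Egr2, with 51 to 1165 counts per library, has the least depth.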
